A study of Canis lupus familiaris with 18 samples.

Results

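Genes of DNA replication and S phase were followed across canine high grade oligodendroglioma (HGO) tumors from 3 breeds. The group was a list of 41 gene symbols, and each was looked up by its symbol in the deposited count table. Of the 41, 36 were found, out of 29993 genes listed and 16324 with a symbol. All 36 passed the filter on low counts, which kept 16495 genes, and 32 of them had at least 10 counts in every library. MCM7, GINS1, POLA1, PRIM1 and E2F1 were not matched by symbol and are not analysed here.

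Bulk RNASeq was performed on formalin-fixed, paraffin-embedded tissue of surgically resected HGO, with 1 library per labelled dog. The libraries came from 11 French bulldogs and, as comparison group, from 4 boxers and 3 Boston terriers, all with a tumor labelled as a prosencephalic HGO. No library came from normal brain, and the labels name no treatment for any dog. The comparison of French bulldogs with boxers and Boston terriers asked whether the tumors of the French bulldog differ in gene expression from those of related breeds with a similar risk of HGO. Dogs are named by breed and by the number in their labels, and the age, sex and tumor location of each comparison dog were not used here.

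Total counts on genes ranged from 8212452 to 13169880 per library, so that 3 counts, taken as the smallest level the depth could show, corresponded to 0.223 to 0.351 CPM (counts scaled by the normalized library size). This limit covers counting error only. French bulldog 6 stood apart from the other 17 libraries. OLIG2 and SOX10, which mark the oligodendrocyte lineage, had 0 and 2 counts in French bulldog 6 and at least 1137 and 1986 counts in every other library. For CD163, a macrophage scavenger receptor, 27819 counts were found in French bulldog 6 and no more than 521 elsewhere. The common leukocyte gene PTPRC had 7800 counts there and at most 516 in the others. These markers go against the label of an oligodendroglioma for this library, which was kept under its label, and results are also given without it. French bulldogs 2 and 8 share a case number in their labels. Over the 36 members their median absolute difference was 0.19 on the log2 CPM scale, against 0.28 to 2.47 for the other pairs of French bulldogs, and over all genes it was 0.20 against at least 0.34, so they were the closest of the 55 pairs. Their counts differed by more than sampling noise (chi-square per degree of freedom 8.72), which separate libraries of 1 tumor could also do. Both stayed in the fit as labelled, and results are also given with their counts summed. The methods of the study treat every library as a separate dog and list French bulldogs 2 and 8 as separate animals with the same age, sex and tumor site, so whether this pair is 1 dog cannot be told from the sources used here.

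In a dividing cell, the origin recognition complex, CDC6 and CDT1 load the MCM helicase onto DNA during G1. At the start of S phase CDC45 and the GINS complex turn the loaded helicase into a moving fork, where polymerases, the sliding clamp PCNA and its clamp loader copy both strands while ribonucleotide reductase and thymidylate synthase supply nucleotides. Checkpoint and repair proteins travel with the fork or are called to it when it stalls. Transcription of most of these genes is raised by E2F factors once the retinoblastoma protein is inactivated, which makes their mRNAs common markers of cycling cells in gliomas. In bulk tissue, a smaller share of cycling cells and less of these mRNAs per cell cannot be told apart.

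Replication genes were on average higher in French bulldog HGO than in boxer and Boston terrier HGO, and none of the 36 differed after adjustment over all genes tested. The log2 fold change (French bulldog minus comparison group, from edgeR's quasi-likelihood model) was above 0 for 35 of 36 members, against 53.7% of all genes tested. Members varied together across libraries, as given below, so their signs, here and by role, are not independent observations. The median over members was 0.64 and the median over all genes was 0.04, with members ranging from -0.18 for BLM to 1.15 for RFC3. No member had an adjusted p-value under 0.05 (Benjamini-Hochberg over 16495 genes; background 0.00606%, 1 gene), and the smallest adjusted p-value was 0.433. By unadjusted p-value (two-sided), 7 members were under 0.05, all with a higher level in French bulldogs. The background for that direction was 7.02% of genes, and for both directions it was 10.6%.

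The 7 were RFC3, MCM3, RPA2, FEN1, GINS2, RRM1 and PCNA. DESeq2's Wald test gave 11 members with an unadjusted p-value under 0.05 (background 9.62%), the 7 among them. It gave 0 members with an adjusted p-value under 0.05, against 58 of all genes. Without French bulldog 6 the DESeq2 count of 11 was 5 (background 9.39%), and 0 members and 76 genes had an adjusted p-value under 0.05. For no member did every French bulldog lie above, or every French bulldog below, every comparison dog. Those arrangements held for 0.00606% and 0.0485% of genes. In the plot of fold changes by gene, most points lie right of 0 with wide error bars.

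**Figure D1:**
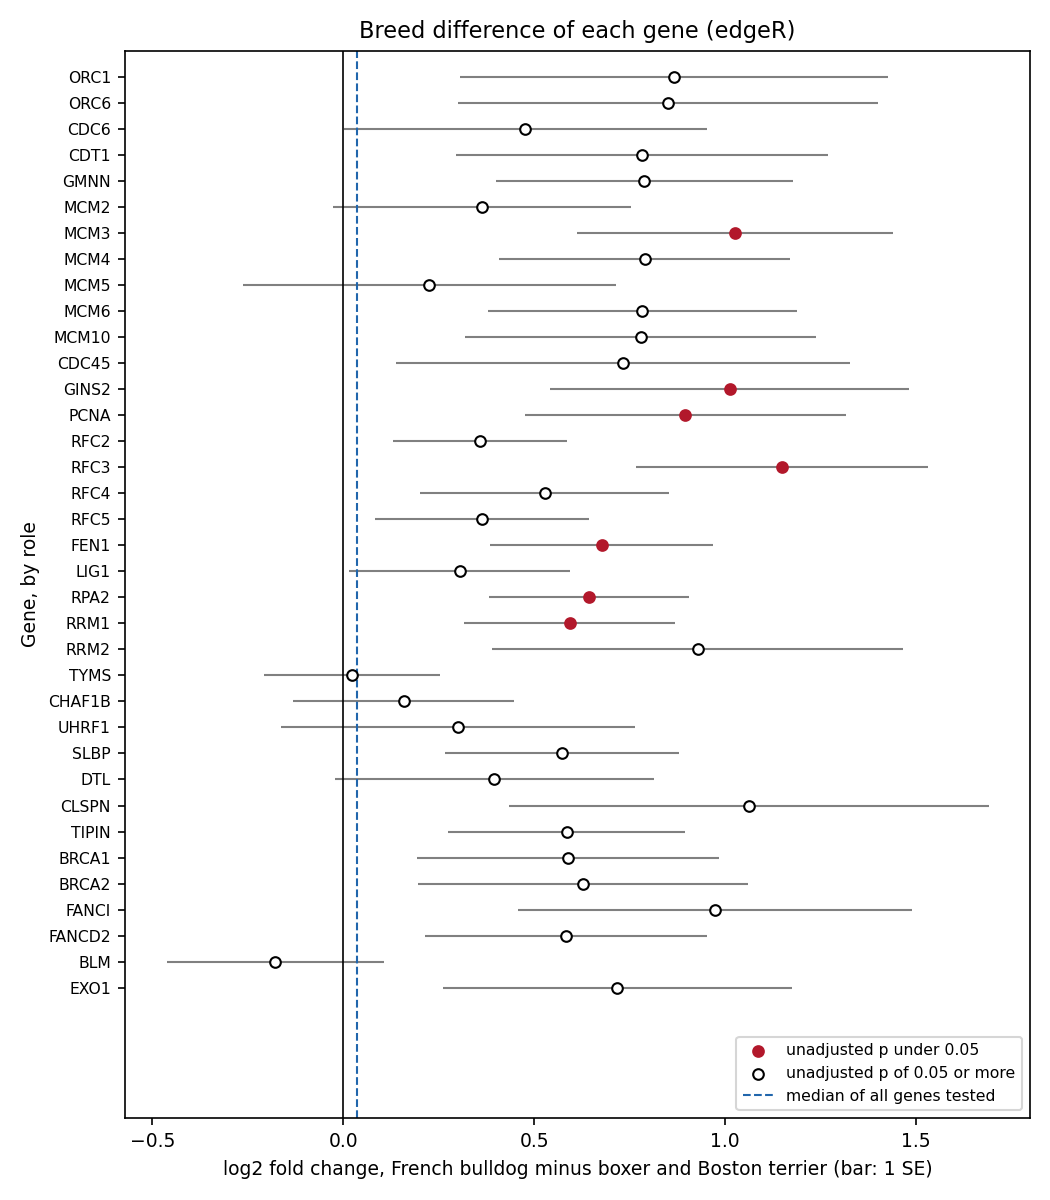
Log2 fold change of each of the 36 genes (horizontal axis, French bulldog minus boxer and Boston terrier, edgeR; bars are 1 SE), grouped by role from licensing at the top to fork protection and repair at the bottom. Filled points are the 7 genes with an unadjusted p-value under 0.05, and the dashed line is the median of all genes tested, 0.04; BLM alone lies left of 0.

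The count of 7 depended on single libraries. It was 5 without French bulldog 6 (background 10.8%), when RRM1 and PCNA were no longer among them, and 4 with French bulldogs 2 and 8 summed (RFC3, MCM3, RPA2 and FEN1, background 9.56%). With both changes together it was 2 (background 8.51%). It was 18 without Boston terrier 7 (background 10.9%), 2 without boxer 1 or without boxer 3, 3 without French bulldog 2, boxer 4 or Boston terrier 6, 4 without French bulldog 1 or French bulldog 8, and 11 without French bulldog 7, 9 or 11. The share of all genes with an unadjusted p-value under 0.05 was 7.79% to 12.8% in these fits with 1 library left out. The direction of the members changed less, with 35 of 36 above 0 without French bulldog 6 (median 0.58), 34 with French bulldogs 2 and 8 summed (median 0.56), 34 with both changes together (median 0.40) and 35 without Boston terrier 7 (median 0.91). For 14 of the 36 members, leaving out some single library moved the log2 fold change by over 1.5 times, and for 22 no library did. The libraries of boxers 1, 3 and 4 and Boston terrier 2 carry one run of library numbers and those of boxer 5 and Boston terriers 6 and 7 another, and neither run is known to hold both groups. Against the first run 11 members had an unadjusted p-value under 0.05 (background 4.94%) and 33 were above 0. Against the other run these counts were 0 (background 4.34%) and 32.

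Licensing genes, which prepare origins for replication, were higher in French bulldogs for 10 of 10 found, with a median log2 fold change of 0.79, against 53.7% of all genes above 0. Of them 1 passed an unadjusted p-value of 0.05, against 7.02% of all genes in this direction, and 1 of 10 is near that share. The gene was MCM3, a subunit of the MCM helicase. Its level in French bulldogs ran from 15.0 CPM to 102 CPM with a median of 33.8 CPM, and in the comparison group from 11.2 CPM to 34.7 CPM with a median of 14.3 CPM. All 11 French bulldogs lay above the comparison median and 5 lay above the highest comparison dog, Boston terrier 7, while the other 6 overlapped with the comparison dogs. Means of 43.7 ± 30.4 CPM (SD, n = 11) and 21.4 ± 10.5 CPM (SD, n = 7) gave a log2 fold change of 1.03 (SE 0.41; edgeR, unadjusted p = 0.0231, adjusted p = 0.433). It was 1.06 without French bulldog 6 and 0.84 with French bulldogs 2 and 8 summed.

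MCM4, another helicase subunit, ranged from 18.2 CPM to 125 CPM around a median of 53.6 CPM in French bulldogs and from 21.7 CPM to 59.7 CPM around 36.4 CPM in the comparison group. French bulldogs 2, 4, 6 and 8 exceeded every comparison dog, and French bulldog 11 was the lowest of all 18. For MCM4 the log2 fold change was 0.79 (SE 0.38; edgeR, unadjusted p = 0.0521, adjusted p = 0.474). MCM6 had a close value, 0.78 (SE 0.41), with French bulldog means of 60.0 ± 38.5 CPM (SD, n = 11) against 34.8 ± 19.9 CPM (SD, n = 7).

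MCM2 and MCM5, also subunits of the helicase, had values that moved with single libraries. MCM2 had a log2 fold change of 0.36 (SE 0.39), which was 0.69 without Boston terrier 7 and 0.21 without French bulldog 8, and it also moved by over 1.5 times without boxer 3. It turned to -0.11 against Boston terriers alone and to -0.11 against the other run of comparison libraries. MCM5 had 0.23 (SE 0.49), which was 0.72 without Boston terrier 7 and 0.02 without French bulldog 8, and leaving out French bulldog 2 or 4 or boxer 1, 3 or 4 also moved it by over 1.5 times. MCM5 in French bulldogs ran from 6.44 CPM to 48.2 CPM with a median of 15.2 CPM, and in the comparison group from 7.11 CPM to 48.7 CPM with a median of 12.8 CPM. Its highest level of all 18 was in Boston terrier 7, so no French bulldog lay above the comparison group. Whether the fold changes of the subunits differ from each other was not tested.

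Among the factors that load the helicase, ORC1 had a log2 fold change of 0.87 (SE 0.56) and ORC6 of 0.85 (SE 0.55), and both are subunits of the origin recognition complex. CDT1, which brings MCM to the origin, had 0.78 (SE 0.49). CDC6, its partner in loading, had 0.48 (SE 0.48), with 0.92 when Boston terrier 7 was left out and 0.23 when French bulldog 6 was. ORC6 was 0.55 without French bulldog 8. Geminin (GMNN), which binds CDT1 and blocks a further round of licensing, ranged from 2.97 CPM to 25.8 CPM in French bulldogs and from 3.53 CPM to 8.78 CPM in the comparison group. Its log2 fold change was 0.79 (SE 0.39; edgeR, unadjusted p = 0.0569, adjusted p = 0.482). ORC1 had fewer than 10 counts in its lowest library, French bulldog 11.

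For helicase activation, 3 of 3 found were higher in French bulldogs (median 0.78, background 53.7%) and 1 had an unadjusted p-value under 0.05 (background 7.02%). GINS2, a subunit of the GINS complex, ran from 2.24 CPM to 14.7 CPM with a median of 4.22 CPM in French bulldogs, and from 0.366 CPM to 6.13 CPM with a median of 2.59 CPM in the comparison group. French bulldogs 2 and 8 were the pair above every comparison dog, and boxer 3, with 4 counts, was the lowest library. Its log2 fold change was 1.01 (SE 0.47; edgeR, unadjusted p = 0.0443, adjusted p = 0.463), and 0.81 with an unadjusted p of 0.088 once French bulldogs 2 and 8 were summed. MCM10, which helps to open the helicase, had 0.78 (SE 0.46). CDC45, which joins MCM and GINS in the active helicase, had 0.73 (SE 0.60), or 1.15 without Boston terrier 7, and 6 counts in its lowest library, French bulldog 9.

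Of the genes for synthesis at the fork, 8 of 8 found had a log2 fold change above 0 (median 0.59, background 53.7%) and 4 had an unadjusted p-value under 0.05 (background 7.02%), and whether this role differs from the others was not tested. RFC3, a subunit of the clamp loader, had the smallest p-value of all members. In French bulldogs it ran from 4.09 CPM to 22.3 CPM with a median of 7.45 CPM, and in the comparison group from 2.00 CPM to 7.95 CPM with a median of 3.85 CPM. All 11 French bulldogs were above the comparison median, 4 of them (2, 5, 6 and 8) were above every comparison dog, and the rest overlapped. The means were 9.60 ± 5.98 CPM (SD, n = 11) and 4.31 ± 1.95 CPM (SD, n = 7), a log2 fold change of 1.15 (SE 0.38; edgeR, unadjusted p = 0.00737, adjusted p = 0.433). The approximate 95% interval from this SE was 0.40 to 1.90. RFC3 had a log2 fold change of 1.12 without French bulldog 6 and 0.99 with French bulldogs 2 and 8 summed.

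The other clamp loader subunits had smaller values, with log2 fold changes of 0.53 (SE 0.33) for RFC4, 0.36 (SE 0.28) for RFC5 and 0.36 (SE 0.23) for RFC2. RFC5 was 0.22 without French bulldog 8, and RFC2 was 0.22 without French bulldog 6 and 0.54 without Boston terrier 7. PCNA, the sliding clamp that the loader places on DNA, ran from 7.71 CPM to 87.0 CPM with a median of 45.0 CPM in French bulldogs, and from 11.4 CPM to 52.1 CPM with a median of 16.0 CPM in the comparison group. French bulldogs 1, 4 and 6 lay above every comparison dog and French bulldog 9 below every one, while Boston terrier 7 was far above the next comparison dog, Boston terrier 2, at 24.2 CPM. PCNA had a log2 fold change of 0.90 (SE 0.42; edgeR, unadjusted p = 0.0464, adjusted p = 0.468), or 0.72 without French bulldog 6 and 1.29 without Boston terrier 7.

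RPA2, a subunit of the protein that coats unwound strands, ran from 7.54 CPM to 26.8 CPM (median 11.3 CPM) in French bulldogs and from 5.39 CPM to 11.4 CPM (median 8.84 CPM) in the comparison group. In RPA2, 5 French bulldogs were above every comparison dog, and the lowest French bulldog lay within the comparison range. Its log2 fold change was 0.64 (SE 0.26; edgeR, unadjusted p = 0.0235, adjusted p = 0.433). FEN1, the nuclease that trims the flaps between Okazaki fragments, ran from 6.83 CPM to 22.9 CPM (median 16.8 CPM) in French bulldogs and from 5.44 CPM to 20.4 CPM (median 8.68 CPM) in the comparison group. French bulldogs 2, 6 and 9 exceeded Boston terrier 7, the highest comparison dog, and French bulldog 9 is a library in which most members were low. FEN1 had a log2 fold change of 0.68 (SE 0.29; edgeR, unadjusted p = 0.0318, adjusted p = 0.444). LIG1, the ligase that joins the trimmed fragments, had 0.31 (SE 0.29), or 0.18 without French bulldog 6.

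Of the 3 nucleotide supply genes, all were above 0 (background 53.7%) and 1 had an unadjusted p-value under 0.05 (background 7.02%). RRM1, the large subunit of ribonucleotide reductase, ran from 25.5 CPM to 115 CPM with a median of 52.1 CPM in French bulldogs, and from 21.6 CPM to 62.9 CPM with a median of 31.9 CPM in the comparison group. French bulldogs 6 and 8 were above every comparison dog and the other French bulldogs overlapped with them. RRM1 had a log2 fold change of 0.59 (SE 0.28; edgeR, unadjusted p = 0.0449, adjusted p = 0.464), and 0.43 with an unadjusted p of 0.077 without French bulldog 6. RRM2, the small subunit, whose mRNA is restricted to cycling cells, ran from 8.25 CPM to 118 CPM (median 53.3 CPM) in French bulldogs and from 9.50 CPM to 69.5 CPM (median 24.5 CPM) in the comparison group. The French bulldogs held both the lowest and the highest levels of RRM2, and its log2 fold change of 0.93 had an SE of 0.54 (edgeR, unadjusted p = 0.102). TYMS, thymidylate synthase, had almost the same mean in both groups, 21.9 ± 6.85 CPM (SD, n = 11) and 21.6 ± 6.71 CPM (SD, n = 7), with an approximate 95% interval of the log2 fold change from -0.43 to 0.47. With each library left out, the log2 fold change of TYMS ran from -0.06 (without French bulldog 4) to 0.14 (without Boston terrier 2). Against Boston terriers alone it was -0.20.

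In the group for chromatin and histone supply, 3 of 3 were above 0 (median 0.30, background 53.7%) and 0 had an unadjusted p-value under 0.05. UHRF1, which reads hemimethylated DNA behind the fork, ran from 20.1 CPM to 79.6 CPM with a median of 43.4 CPM in French bulldogs, and from 10.9 CPM to 141 CPM with a median of 19.6 CPM in the comparison group. Every French bulldog lay above the comparison median, and Boston terrier 7 lay above every French bulldog. For UHRF1 the log2 fold change was 0.30 (SE 0.46; edgeR, unadjusted p = 0.525, adjusted p = 0.855) with Boston terrier 7 and 1.08 (unadjusted p = 0.010) without it. UHRF1 was 0.14 without boxer 3, and boxers 1 and 4 and Boston terrier 6 also moved it by over 1.5 times when left out.

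SLBP, which binds the stem-loop of histone mRNAs, was between 8.86 CPM and 17.0 CPM in 17 libraries and 59.5 CPM in French bulldog 6. Its log2 fold change was 0.57 (SE 0.31) with French bulldog 6 and 0.23 without it. CHAF1B, a subunit of chromatin assembly factor 1, ran from 3.73 CPM to 10.9 CPM in French bulldogs and from 2.76 CPM to 11.6 CPM in the comparison group, with boxer 4 highest. Its log2 fold change was 0.16 (SE 0.29), from 0.03 without Boston terrier 6 to 0.39 without boxer 4, and leaving out French bulldog 1, boxer 1 or boxer 3 also moved it by over 1.5 times. DTL, which directs the destruction of CDT1 during S phase and was the member found for S phase control, had 0.40 (SE 0.42), or 0.23 without Boston terrier 6.

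Of the 8 genes for fork protection and repair, 7 were above 0 (median over the 8, 0.61, background 53.7%) and 0 had an unadjusted p-value under 0.05. CLSPN, the checkpoint mediator claspin, ran from 4.39 CPM to 75.9 CPM (median 16.2 CPM) in French bulldogs and from 3.11 CPM to 36.9 CPM (median 14.3 CPM) in the comparison group. French bulldogs 2, 6 and 8 were above every comparison dog, and the medians of the groups were close. CLSPN had the largest spread among members, an SD of 1.41 in log2 CPM over the 18 libraries, and its log2 fold change of 1.06 had an SE of 0.63 (edgeR, unadjusted p = 0.108). FANCI and FANCD2 form the complex that is ubiquitinated at stalled forks. FANCI had a log2 fold change of 0.97 (SE 0.52). FANCD2, which ran from 13.3 CPM to 74.0 CPM in French bulldogs and from 12.2 CPM to 51.3 CPM in the comparison group, had 0.58 (SE 0.37).

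The homologous recombination genes BRCA2 and BRCA1 had log2 fold changes of 0.63 (SE 0.43) and 0.59 (SE 0.40). TIPIN, the partner of TIMELESS in the fork protection complex, had 0.59 (SE 0.31), and the exonuclease EXO1 had 0.72 (SE 0.46). BLM, a RecQ helicase, was the member with a negative value. It ran from 20.8 CPM to 103 CPM with a median of 58.4 CPM in French bulldogs, and from 44.5 CPM to 95.7 CPM with a median of 72.7 CPM in the comparison group. French bulldogs 6, 9 and 11 were below every comparison dog and 4 French bulldogs (2, 4, 5 and 8) were above every one. The log2 fold change of BLM was -0.18 (SE 0.29; edgeR, unadjusted p = 0.541) and -0.07 without French bulldog 6. BLM was -0.27 without French bulldog 4, and leaving out French bulldog 9 or Boston terrier 7 also moved it by over 1.5 times.

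**Figure D2:**
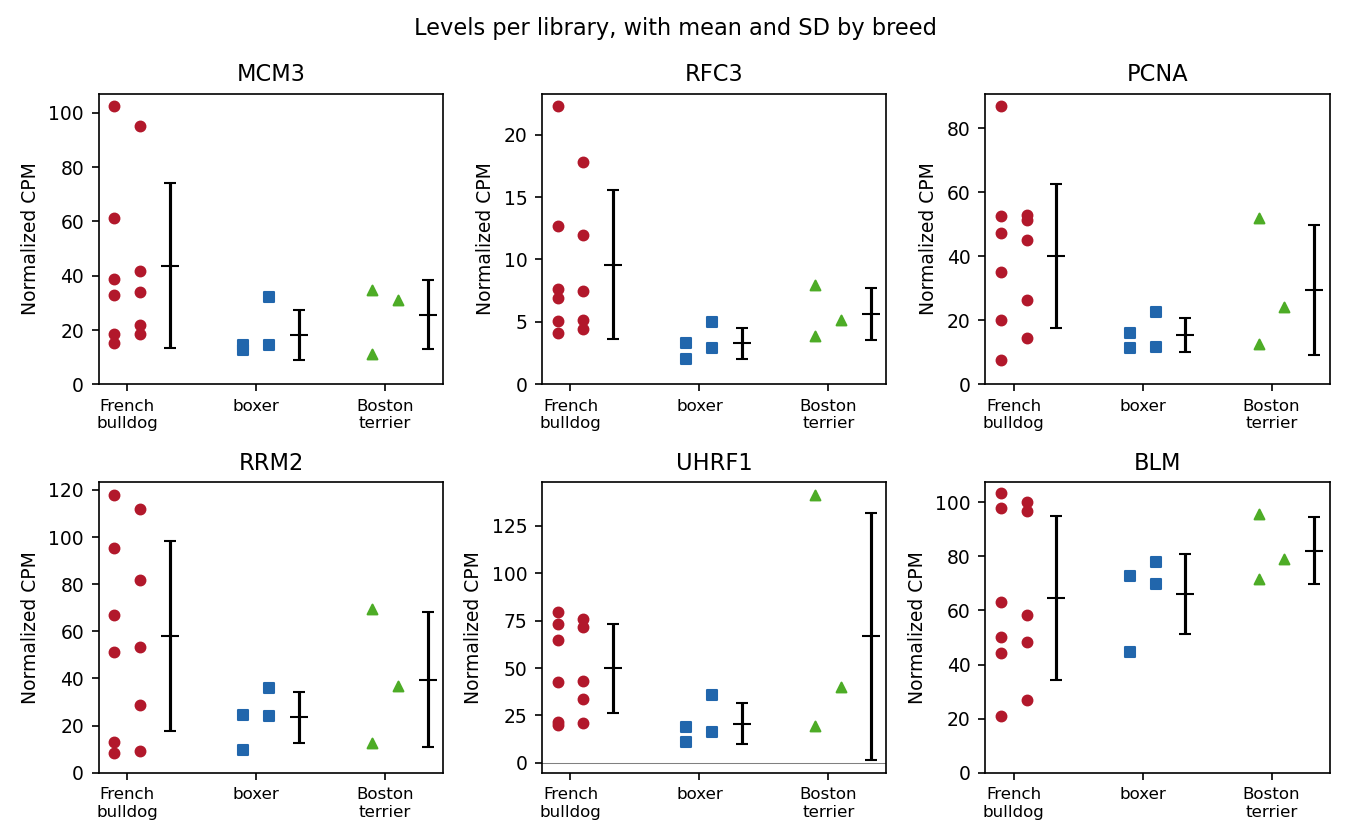
Normalized CPM (vertical axes, linear, from 0 or just below) of MCM3, RFC3, PCNA, RRM2, UHRF1 and BLM in each library of the 3 breeds, with the mean and SD of each breed as a bar to the right of its points. Groups overlap in every panel; the highest UHRF1 point, 141 CPM, is Boston terrier 7, and the lowest BLM point, 20.8 CPM, is French bulldog 6.

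A score was computed for each library as the mean over the 36 members of the z-score of log2 CPM. The score was highest in French bulldog 8 (1.48), French bulldog 2 (1.31) and French bulldog 6 (1.16), and Boston terrier 7 came next (0.80). French bulldogs 4 (0.66) and 1 (0.49) followed. These 6 libraries had 31 to 36 of the 36 members above the mean of all libraries, so that they were high across nearly the whole list and not for a few genes.

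French bulldogs 5 (0.11), 10 (0.09) and 3 (-0.10), Boston terrier 2 (-0.04) and boxer 5 (-0.06) lay near 0. The lowest scores were those of boxer 4 (-0.61), boxer 1 (-0.63), French bulldog 7 (-0.75), Boston terrier 6 (-0.88), French bulldog 9 (-0.92), French bulldog 11 (-0.99) and boxer 3 (-1.09). French bulldog 7 had 0 of the 36 members above the mean of all libraries. Each breed therefore had low libraries, and the 3 lowest French bulldogs lay among the comparison dogs.

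French bulldogs had a mean score of 0.229 ± 0.881 (SD, n = 11) and the comparison group of -0.360 ± 0.644 (SD, n = 7), a difference of 0.589, which is smaller than the SD within either group. Of the 11 French bulldogs, 8 lay above the comparison mean and 3 above the highest comparison dog. The difference was 0.557 without French bulldog 6, 0.5002 with French bulldogs 2 and 8 summed and 0.410 with both changes. Leaving out Boston terrier 7 gave 0.781. Summed over the 36 members, the level ran from 393 CPM in French bulldog 9 to 1849.6 CPM in French bulldog 8, a 4.71-fold range, and averaged 987 ± 517 CPM (SD, n = 11) for French bulldogs and 669 ± 299 CPM (SD, n = 7) for the others. The SD in CPM was larger in French bulldogs than in the comparison group for 34 of 36 members, while the mean was larger for 35. No share over all genes is given for this count, and French bulldog 6 is in it. The score had a correlation of -0.084 with total counts over the 18 libraries.

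**Figure D3:**
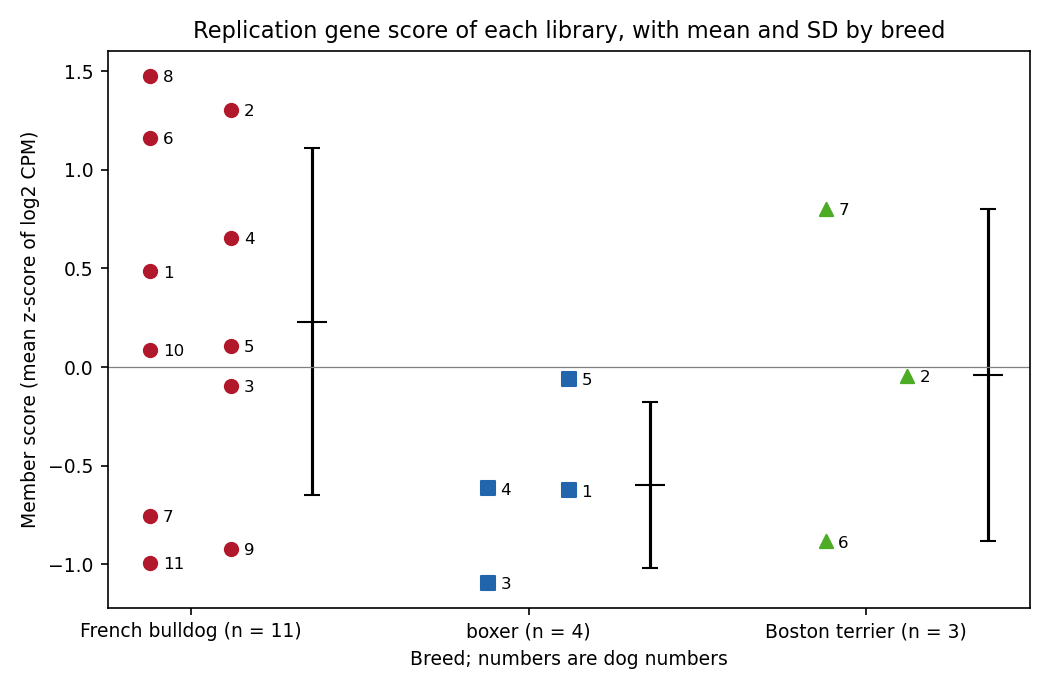
Replication gene score (vertical axis, mean z-score of log2 CPM over 36 genes) of each library by breed, labelled with the dog number, with the mean and SD of each breed as a bar. French bulldogs run from -0.99 to 1.48, boxers from -1.09 to -0.06 and Boston terriers from -0.88 to 0.80, and the breeds overlap.

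**Figure D4:**
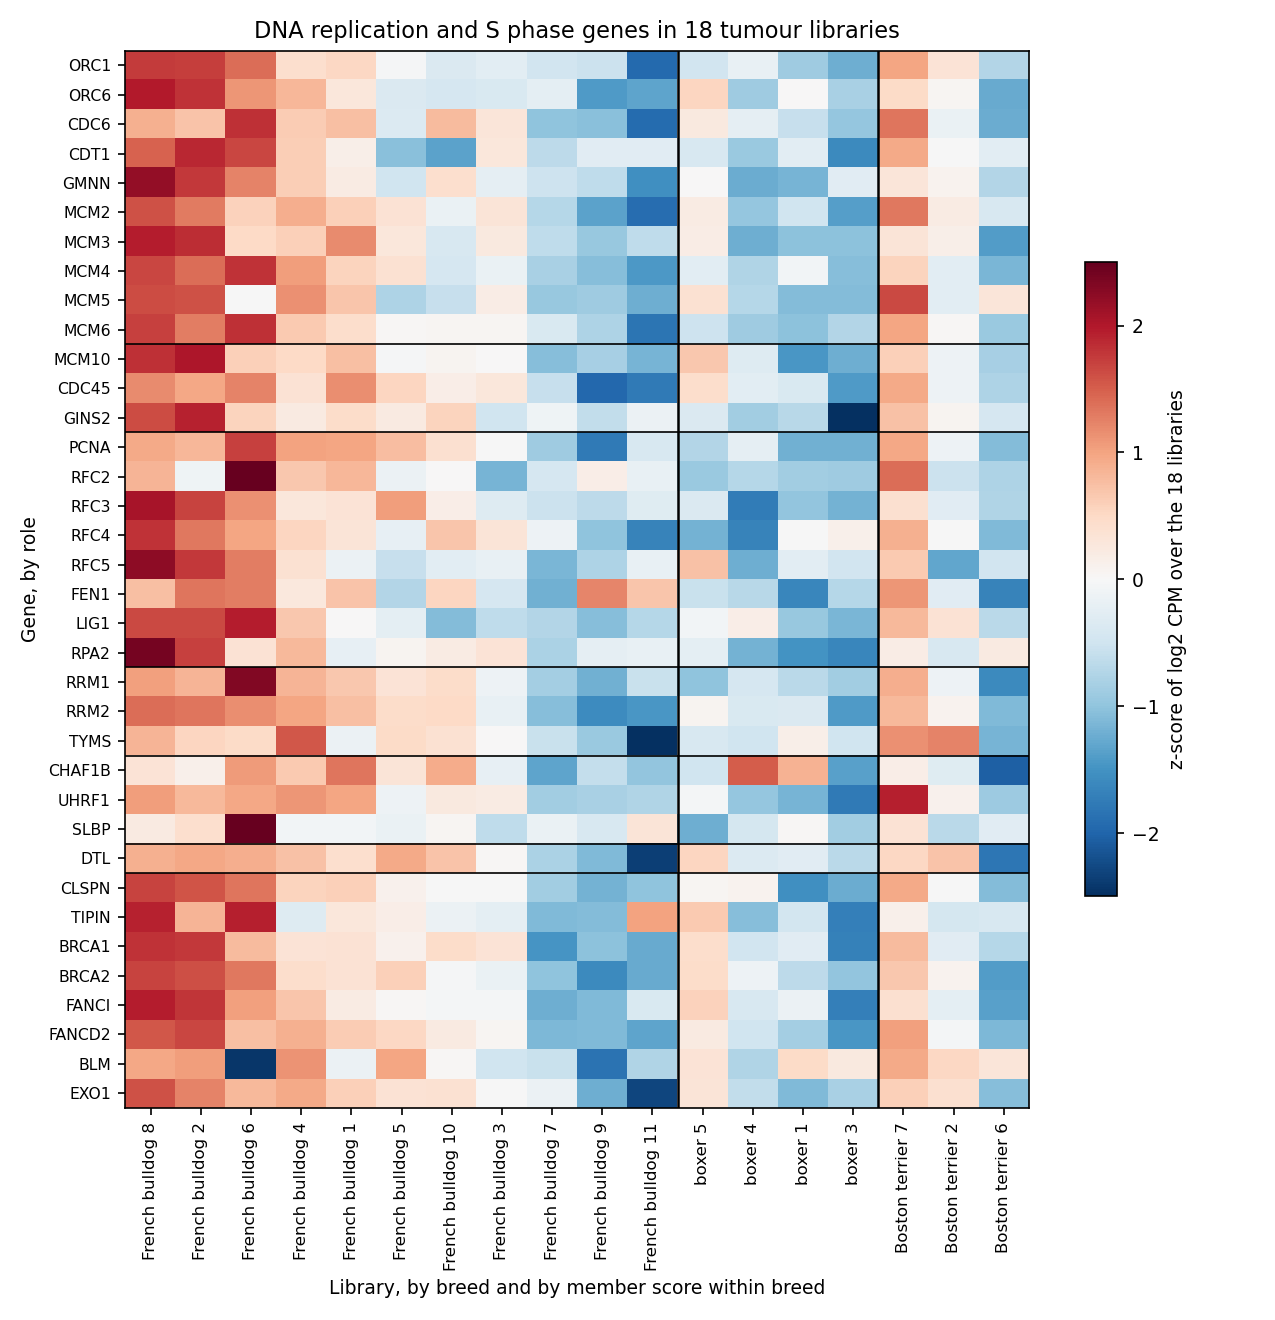
Z-scores of log2 CPM of the 36 genes (rows, grouped by role in the order of the text) in the 18 libraries (columns, by breed and by score within breed); the colors saturate at 2.5 z on either side. Columns are mostly of 1 color from top to bottom, with exceptions such as BLM and SLBP in French bulldog 6, FEN1 in French bulldog 9 and CHAF1B in boxer 4.

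The comparison group was not uniform. Boxer levels were below Boston terrier levels for 33 of 36 members in a fit with 3 breeds, with a median log2 fold change (boxer minus Boston terrier) of -0.47. Over all genes the median was 0.01, and 51.1% of genes were higher in boxers. Breed and run of library numbers largely coincide in the comparison group, and their parts in this difference were not separated. By unadjusted p-value 1 member, UHRF1, was under 0.05, against 1.91% of genes, and by adjusted p-value there were 0 members and 0 genes under 0.05 in edgeR. DESeq2 also gave 1 member by unadjusted p-value (background 2.92%), and 1 of 36 is near both backgrounds.

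UHRF1 was at 16.4 CPM, 10.9 CPM, 18.98 CPM and 35.9 CPM in boxers 1, 3, 4 and 5. In Boston terriers 2, 6 and 7 it was at 39.9 CPM, 19.6 CPM and 141 CPM. Boxer 5 lay above Boston terrier 6, so the breeds overlapped, and the log2 fold change of -1.70 (SE 0.63; edgeR, unadjusted p = 0.0147, adjusted p close to 1) rested on Boston terrier 7. GINS2 was at 2.104 CPM, 0.366 CPM, 1.81 CPM and 2.70 CPM in boxers 1, 3, 4 and 5 and at 3.76 CPM, 2.59 CPM and 6.13 CPM in Boston terriers 2, 6 and 7 (log2 fold change -1.25, SE 0.68; edgeR, unadjusted p = 0.0826). MCM5 was at 7.11 CPM, 7.13 CPM, 9.25 CPM and 20.1 CPM in the boxers and at 12.8 CPM, 18.98 CPM and 48.7 CPM in the Boston terriers (-1.30, SE 0.72; edgeR, unadjusted p = 0.0893). In both genes boxer 5 lay within the Boston terrier range and the other boxers below it.

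Boston terrier 7 was the highest of the 7 comparison libraries in 27 of 36 members. Without it, boxers were below Boston terriers for 24 of 36 members, the median was -0.07, and 0 members had an unadjusted p-value under 0.05 (background 0.874%). The last count was 2 without boxer 5 (background 1.91%) and 2 without Boston terrier 6 (background 2.02%). In the same 3-breed fit, French bulldogs were above boxers for 34 members with a median of 0.93, and 11 had an unadjusted p-value under 0.05 (background 8.27%, with 53.1% of genes above 0). French bulldogs were above Boston terriers for 31 members with a median of 0.38, and 0 had an unadjusted p-value under 0.05 (background 3.83%, with 57.8% of genes above 0). These contrasts share the same French bulldogs, and whether they differ from each other is the comparison of boxers with Boston terriers above. The means were ordered French bulldog, Boston terrier, boxer, from high to low, in 28 of 36 members. No share over all genes is given for this order or for the 27 members highest in Boston terrier 7.

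Members varied together from library to library. The median Pearson correlation of log2 CPM over the 18 libraries was 0.733 for the 630 pairs of members, and 0.006 for pairs of all genes tested. It was 0.737 without French bulldog 6, 0.711 with French bulldogs 2 and 8 summed, 0.772 for French bulldogs alone (n = 11) and 0.668 for the comparison group alone (n = 7). The median SD of the members was 0.89 in log2 CPM against 0.65 for all genes tested, or 0.88 against 0.55 without French bulldog 6. Not every member lay above the all-gene median, with RFC2 at 0.43 and TYMS at 0.47 over the 18 libraries. All points share the libraries and their normalization, and these correlations are given as a description.

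FANCD2 followed the mean z-score of the other members most closely (r = 0.971, n = 18), and then RRM2 (0.960), CLSPN (0.955) and MCM4 (0.954). These 4 come from 3 of the roles. BLM was the least alike, with r = 0.253 over 18 libraries and 0.647 without French bulldog 6, where it had its lowest level while most members were high. SLBP had 0.472 and CHAF1B 0.518, and these were 0.439 and 0.473 without French bulldog 6. FEN1 had 0.586.

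Outside the lists of replication, G1 to S, mitosis and marker genes, the genes whose log2 CPM correlated best with the score over the 18 libraries were NCAPG (r = 0.974), PRC1 (0.970), NCAPH (0.968), ESCO2 (0.966) and ERCC6L (0.966). NCAPG and NCAPH are subunits of condensin, PRC1 bundles microtubules of the central spindle, ESCO2 acetylates cohesin in S phase, and ERCC6L is a helicase of anaphase bridges. Without French bulldog 6 the values for these 5 genes were 0.961 to 0.972. Of the 36 members, 30 had a correlation above 0.7 with the other members (83.3%), and 3.95% of all genes had one above 0.7 with the score.

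Other genes of replication outside the member list were also mostly above 0. Of 47 listed, 41 were found and tested, and 32 were above 0 (against 53.7% of all genes) with a median log2 fold change of 0.39. By unadjusted p-value 5 were under 0.05 in the direction of French bulldogs (ORC2, PRIM2, DCK, USP1 and MCM8) and 2 in the other direction (CDC7 and RNASEH2A), and 0 had an adjusted p-value under 0.05 in edgeR. The background was 7.02% for the first direction and 3.55% for the second. The count of 5 was 12 without Boston terrier 7, 2 without Boston terrier 6, 3 without French bulldog 1, 2 or 8 or boxer 1, 3 or 5, and 8 without French bulldog 7, and the count of 2 was 1 without Boston terrier 7. In fits with 1 library left out, 7.79% to 12.8% of all genes were called in both directions together. The share by direction is not given for these fits. MCM8, a helicase of recombination, ran from 27.3 CPM to 69.9 CPM in French bulldogs and from 22.4 CPM to 37.4 CPM in the comparison group (log2 fold change 0.61, SE 0.19; edgeR, unadjusted p = 0.00469, adjusted p = 0.433). USP1, which removes ubiquitin from FANCD2 and PCNA, had 0.65 (SE 0.23). RNASEH2A, which removes ribonucleotides from DNA, ran from 15.0 CPM to 84.3 CPM in French bulldogs and from 62.5 CPM to 106 CPM in the comparison group (-0.74, SE 0.25; edgeR, unadjusted p = 0.00932, adjusted p = 0.433). French bulldog 6 had the lowest RNASEH2A, and 1 French bulldog lay above the comparison median.

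Among E2F factors and regulators of the step from G1 to S, 28 of 31 were found and tested, 21 were above 0 (against 53.7% of all genes) and the median was 0.27. By unadjusted p-value RBL1, CCNA2 and FBXO5 were under 0.05 with higher levels in French bulldogs and TFDP2 with a lower level, and none had an adjusted p-value under 0.05 (edgeR). With 7.02% of all genes called higher and 3.55% lower, these counts of 3 and 1 among 28 were near the background. The count of 3 ran from 2 to 6 with each library left out, where 7.79% to 12.8% of all genes were called in both directions together. RBL1, the pocket protein p107 and itself an E2F target, ran from 17.1 CPM to 77.5 CPM in French bulldogs and from 16.5 CPM to 27.1 CPM in the comparison group (0.90, SE 0.31; edgeR, unadjusted p = 0.00839). FBXO5, an inhibitor of the anaphase-promoting complex, had 1.21 (SE 0.48), and TFDP2, a dimerization partner of E2F factors, had -0.67 (SE 0.25).

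Mitosis genes, which act after replication, were above 0 throughout. Of 20 listed, 17 were found and tested, 17 were above 0 (against 53.7% of all genes), the median was 0.95, and 8 had an unadjusted p-value under 0.05 (against 7.02% of all genes in this direction) and 0 an adjusted one (edgeR). MKI67 ran from 22.3 CPM to 712 CPM (median 120.2 CPM) in French bulldogs and from 43.2 CPM to 211 CPM (median 91.3 CPM) in the comparison group, with a log2 fold change of 1.39 (SE 0.66; edgeR, unadjusted p = 0.0492, adjusted p = 0.471). TOP2A, the topoisomerase that untangles replicated DNA, had 1.34 (SE 0.56), CCNB2 had 1.69 (SE 0.64), the spindle motor KIF11 had 1.42 (SE 0.61) and CDK1 had 0.95 (SE 0.55). For all of them the French bulldog range covered most or all of the comparison range. The count of 8 was 1 without boxer 1, boxer 3 or Boston terrier 6, 2 without French bulldog 2, French bulldog 8 or boxer 4 and also 2 with French bulldogs 2 and 8 summed, 3 without French bulldog 6, 4 without French bulldog 1 or 4, 5 without Boston terrier 2, 11 without Boston terrier 7 and 0 with limma-voom (9.25% of all genes), while 17 stayed above 0 with each library left out. The backgrounds of the edgeR fits are those given for the members, in both directions together. The score of the members had a Pearson correlation of 0.966 with that of the mitosis genes (Spearman's rho 0.928, n = 18). It was 0.963 without French bulldog 6, 0.979 within French bulldogs and 0.907 within the comparison group.

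**Figure D5:**
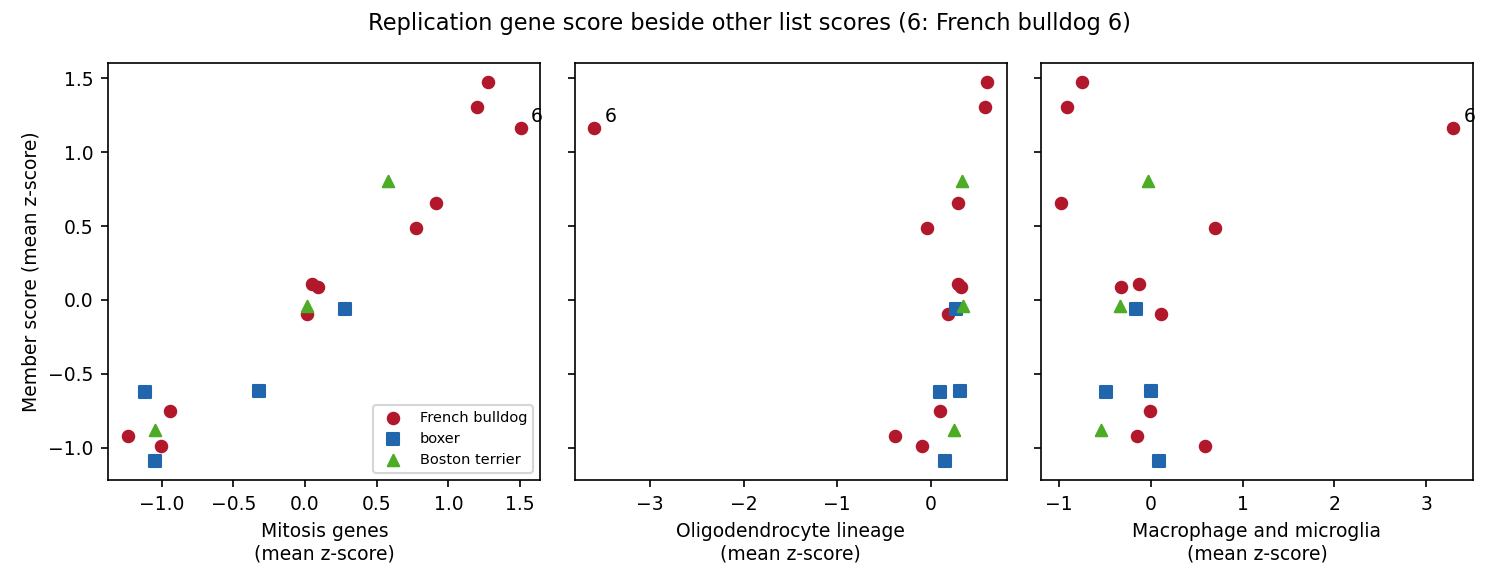
Replication gene score of each library (vertical axis) against the score of mitosis genes, of oligodendrocyte lineage markers and of macrophage and microglia markers (horizontal axes, mean z-scores of log2 CPM); French bulldog 6 is labelled. Points lie along a line in the first panel, while French bulldog 6 lies far from the other 17 in the others, at -3.60 and 3.29.

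Markers of other cell types varied among the same libraries. For the oligodendrocyte lineage (7 of 7 markers found), the correlation of their score with the replication score was -0.179 over 18 libraries and 0.680 over the 17 without French bulldog 6. In French bulldog 6 the summed level of these markers was 43.5 CPM, with OLIG2 and NKX2-2 at 0, against 1126.6 CPM to 6884 CPM in the other French bulldogs and 1687 CPM to 3395 CPM in the comparison group. For neurons (8 of 8) the correlation was -0.649, and -0.599 without French bulldog 6. The summed neuron level ran from 66.6 CPM to 1393 CPM in the other French bulldogs and from 89.9 CPM to 1125 CPM in the comparison group, and NEFM and GAD1 were at 0 in French bulldog 6. Libraries with a higher neuron score tended to have a lower replication score, and the part of these cells in it was not tested.

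For astrocytes (3 of 4 markers found) the correlation was -0.642 (-0.744 without French bulldog 6), with summed levels from 336 CPM to 4541 CPM in French bulldogs other than 6 and from 572 CPM to 3092 CPM in the comparison group. For macrophages and microglia (11 of 12) it was 0.109 over 18 libraries and -0.445 without French bulldog 6, for myelin (4 of 6) -0.552 and -0.456 without it, and for endothelium (4 of 5) -0.534 with it and without it. Within groups the myelin correlation differed in sign, at -0.740 in French bulldogs (n = 11) and 0.548 in the comparison group (n = 7). For endothelium these values were -0.576 and -0.079. For T cells 6 of 6 markers were found, but the score rests on the 2 that passed the filter. Its correlation was 0.136 over 18 libraries and -0.184 without French bulldog 6, so the sign turned. The summed macrophage level was 8299.6 CPM in French bulldog 6, 62.9 CPM to 420 CPM in the other French bulldogs and 104 CPM to 205 CPM in the comparison group. Between breeds, 11 of 11 macrophage markers were above 0 with a median log2 fold change of 2.12, which was 8 of 11 and 0.38 without French bulldog 6. Myelin markers were above 0 in 4 of 4, with a median of 0.75 (0.93 without French bulldog 6) beside 0.64 for the members, though with limma-voom 2 of 4 were above 0 and the median was -0.25. Of the T cell markers 2 of 6 passed the filter, and they lay on opposite sides of 0, at -0.79 and 2.03. Their median was 0.62, or -0.34 without French bulldog 6. The medians for neuron, astrocyte, endothelium and oligodendrocyte lineage markers were -0.06, -0.07, -0.09 and -0.23, and 0.12, 0.11, -0.02 and -0.06 without French bulldog 6, so that the first pair turned in sign. The part of these cell types in the breed difference of the members was not tested.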

How the data were processed

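The authors trimmed paired-end reads with Trimmomatic (0.33), aligned them to the dog genome with HISAT2 (2.1.0) and obtained gene counts with featureCounts; the strand and multi-mapping settings are not given in the sources used here. They deposited raw counts, without normalization, for 18 libraries and 29993 genes. Tumors were grouped by the breed in the labels. Counts were normalized by TMM and filtered by filterByExpr in edgeR (4.0.16, R 4.3.3), and tested with its robust quasi-likelihood F test and Benjamini-Hochberg adjustment over 16495 genes at 0.05. The SE was obtained from the F statistic and the size of the log2 fold change. Scores used log2 CPM with a prior count of 2. Alternatives were DESeq2 (1.42.0), which the study used, limma-voom (limma 3.58.1), other normalizations and filters, subsets of the comparison dogs, and each library left out. The code was tested on simulated data. Members and lists were chosen with earlier results of these data known. Genes described in full were the 8 members with the smallest p-value, the 4 most and 3 least correlated with the others, the 3 with the smallest p-value between boxers and Boston terriers, 3 genes of each other list, MKI67, TOP2A, CDK1, and the 5 genes most like the score. Other members and list genes were named for their role or because they passed an unadjusted threshold. Genes are named by the symbols in the file. The fold change of each member has the precision its SE gives. Figures were drawn with Python 3.11.15 and matplotlib 3.10.9.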

Additional observations from a re-analysis of the deposited data

Results flagged for a closer look

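A library was marked where its gap to the nearest other library of its group exceeded Dixon's 95% critical value. Only the 4 boxers and the 7 boxers and Boston terriers were examined, so outlying French bulldogs were not looked for. Of 74 groups tested 13 were marked, and chance marks about 1 in 20; the genes vary together, so the marks are not independent. In 10 of the 13, Boston terrier 7 was high among the 7 boxers and Boston terriers. These were the licensing genes CDC6 at 16.3 CPM, CDT1 at 5.88 CPM, MCM2 at 63.8 CPM, MCM5 at 48.7 CPM and MCM6 at 77.1 CPM. They were also the fork genes PCNA at 52.1 CPM, RFC2 at 15.4 CPM and FEN1 at 20.4 CPM, together with UHRF1 at 141 CPM and CLSPN at 36.9 CPM. The next comparison dog was at 39.9 CPM for UHRF1 and at 24.2 CPM for PCNA. Among the 4 boxers, boxer 5 was high for MCM3 at 32.0 CPM and MCM5 at 20.1 CPM, and boxer 1 was high for TYMS at 21.8 CPM.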

How the results depend on the processing

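The count of members with an adjusted p-value under 0.05 was 0 in every alternative run, as it was in the reported test. The count with an unadjusted p-value under 0.05, 7 as reported, was 11 with DESeq2, 4 with French bulldogs 2 and 8 summed, 2 when French bulldog 6 was also left out (chosen after seeing the data), 11 against boxers alone (7.13% of all genes), 0 against Boston terriers alone (3.17%), 11 and 0 against the first and the other run of comparison libraries, and 2 to 18 with each library left out. Between boxers and Boston terriers the count of 1 was 5 in a fit of these 7 libraries alone (6.23% of all genes) and 0 to 2 with each library left out. For 27 named genes under 35 alternatives, 937 fold changes kept their direction and side of the threshold and 6 reversed. CHAF1B was -0.048 against boxers alone and -0.070 against the first run, UHRF1 was -0.44 against Boston terriers alone and -0.41 against the other run, and MCM5 was -0.39 and -0.52 in these. The score difference ran from 0.271 against Boston terriers alone to 0.828 against boxers alone, and the cause of these changes was not tested. With limma-voom the median of all genes was -0.06 in place of 0.04, and 34 of 36 members stayed above 0. With the dog number as a replicate block (numbers 1 to 7), 6 members had an unadjusted p-value under 0.05 (6.03% of all genes) against 10 (10.8%) without the block in the same 14 libraries, and the score difference was 0.770. The numbers were not taken to pair the dogs, since deviations of same-numbered dogs had correlations from -0.502 to 0.205. For 2 of 7 French bulldogs the comparison dog of the same number was the best match. Genes under 10 counts in a library (ORC1, CDC45, GINS2 and EXO1) are limited by depth.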
